A study of Mus musculus with 30 samples.

Results

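The cerebellum's Purkinje cell layer was compared between mice with and without Nova2 in Purkinje cells at postnatal day 28, and every splicing event listed for that comparison in the authors' deposited table is described here. The table holds 603 events in 256 genes, of 6491 events in the 4 splicing tables of the series that were used. Both groups were C57BL/6J mice with 3 samples each. The control group has a wild-type genotype with Pcp2-Cre, and the conditional knockout (cKO) group has Nova2 deleted with Pcp2-Cre, so both carry the Cre transgene. RNA was depleted of ribosomal RNA. Cre under the Pcp2 promoter acts in Purkinje cells, whereas a dissected layer also holds RNA of granule cells, interneurons and glia that keep Nova2, and in such bulk tissue fewer cells of a type and less RNA per cell cannot be told apart. Whether separate animals gave the 3 samples is left unsaid by the labels, so the authors' FDR may measure technical spread.

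NOVA2 is a neuronal RNA-binding protein that recognises clusters of the RNA tetramer YCAY, where Y is a pyrimidine. As background, its binding within or upstream of an alternative exon tends to promote skipping, and binding downstream tends to promote inclusion. Purkinje cells are the output neurons of the cerebellar cortex. They combine fast spiking with strong calcium release from internal stores through the mGluR1 and IP3 receptor pathway, and mutations in many of these genes cause ataxia.

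Each event has 1 inclusion level per group, for exons the fraction of the event's RNA that carries the alternative exon, which the authors pooled over the samples. There is no value per sample, so no spread between replicates can be shown and the authors' FDR is the only test. The table names its groups only as group 1 and group 2, and neither its header nor the labels say which of them is the control. Directions are therefore written as higher or lower in group 2, and no gain or loss with the deletion can be read from them. Listed events have an FDR of at most 0.0498 and none differs by less than 0.1 in level, so an unlisted gene is not shown to be unchanged. Nova2 has no listed event, and its own loss cannot be checked here.

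Short coding exons among the named events are printed first, because they show which coding segments differed between the groups. Capitals mark the alternative exon and lower case marks the adjoining 12 bases of each neighbouring exon, in mm10 on the transcribed strand, from GENCODE M21 transcripts. The requirement that exon and flanks be coding was added after the values were seen, and the Itpr1 exon was added because it had the highest coverage of the table.
Ank1, chr8:23110347-23110370: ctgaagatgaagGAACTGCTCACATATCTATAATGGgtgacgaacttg
Itpr1, chr6:108365299-108365343: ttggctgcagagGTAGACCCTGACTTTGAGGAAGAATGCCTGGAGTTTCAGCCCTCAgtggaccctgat
Kcnd3, chr3:105666962-105667018: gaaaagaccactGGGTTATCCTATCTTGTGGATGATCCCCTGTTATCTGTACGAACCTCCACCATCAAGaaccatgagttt
Inpp4a, chr1:37383339-37383371: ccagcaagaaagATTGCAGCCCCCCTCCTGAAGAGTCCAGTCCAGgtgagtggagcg
Stim1, chr7:102433197-102433233: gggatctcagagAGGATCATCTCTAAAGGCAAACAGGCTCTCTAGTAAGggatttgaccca
Osbpl6, chr2:76569020-76569043: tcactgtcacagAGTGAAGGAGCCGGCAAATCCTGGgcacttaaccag
Zmynd8, chr2:165852868-165852879: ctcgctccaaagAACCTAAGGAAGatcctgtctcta
Ralgapb, chr2:158439529-158439564: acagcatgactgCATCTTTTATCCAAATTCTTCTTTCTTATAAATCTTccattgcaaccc
Ssbp4, chr8:70599840-70599899: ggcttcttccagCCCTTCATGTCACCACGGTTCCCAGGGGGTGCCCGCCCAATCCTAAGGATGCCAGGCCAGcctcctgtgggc
All but the Stim1 exon of 37 nt have a length divisible by 3 and leave the reading frame intact. YCAY, that is C or T, then CA, then C or T, counted on the transcribed strand with overlaps, occurs 3 times in the Ssbp4 exon, 2 times in the Kcnd3 exon and 1 time each in the Ank1 and Stim1 exons. The other 5 exons hold none, which says nothing about the introns around them.

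Of the 603 events, 409 were higher and 194 lower in group 2, and the median absolute difference was 0.170. Of these, 114 differed by at least 0.3 and 18 by at least 0.5, and 197 (32.7%) had a level below 0.5 in 1 group and above it in the other. The counts of higher and lower events pool all event types. For introns, mutually exclusive exons and alternative splice sites the sign has limits, which are given below. Coverage, a value per event that no header or label defines, had a median of 88.5 and ran from 20 to 6953. Genes with a listed event made up 1.18% of the 21924 protein-coding genes of the annotation, against 4.66% in the Emx1-Cre and 3.93% in the Gad2-Cre table. The number of genes that were testable is not known for any of the tables.

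**Figure D1:**
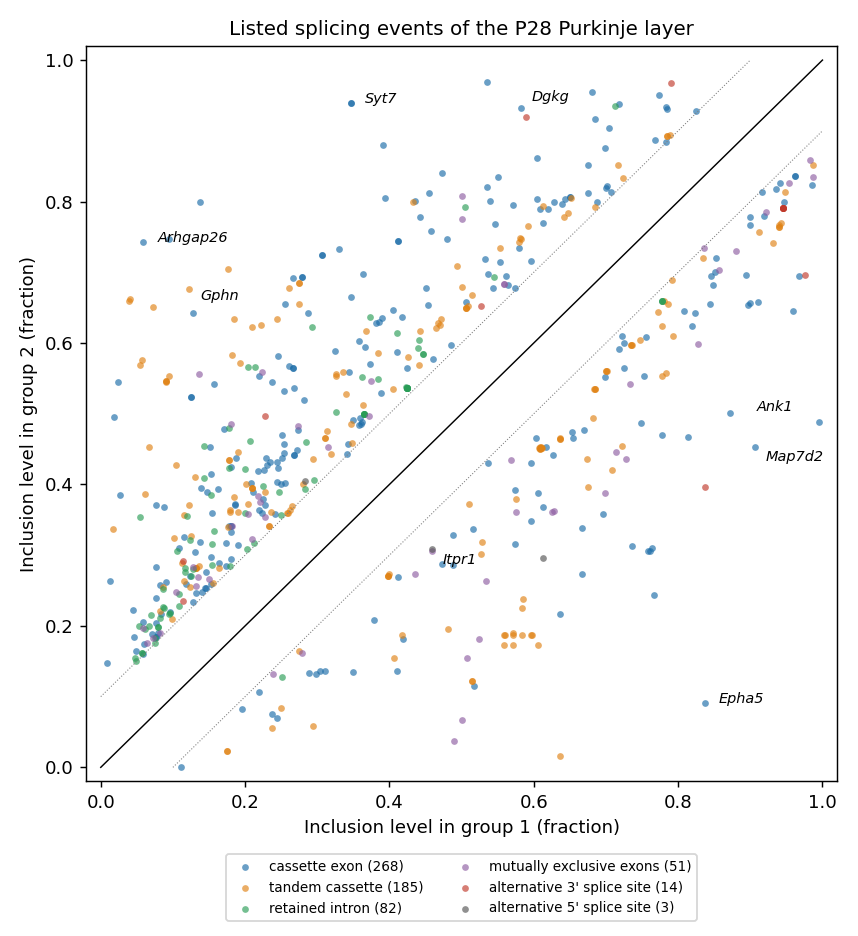
Inclusion level in group 1 (x axis) and group 2 (y axis), as fractions, for each of the 603 listed events (points, coloured by event type). The solid line is equality, the dotted lines mark a difference of 0.1, and 409 points lie above the diagonal.

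Single exons were among the largest differences of the authors' deposited table. Epha5, an ephrin receptor of axon guidance, had a coding exon of 66 nt (chr5:84117561-84117626) at a level of 0.837 in group 1 and 0.0909 in group 2 (FDR 1.1e-05), at a coverage of only 24. Arhgap26, a GTPase-activating protein, had a coding exon of 276 nt at 0.0585 in group 1 and 0.743 in group 2 (FDR 1.79e-62, coverage 156), and its 8 events overlap at 1 place in the gene. Syt7, a calcium sensor of vesicle fusion, had its largest difference at an exon of 88 nt that is not in GENCODE, with deposited levels of 0.346 and 0.940. A Syt7 coding exon of 123 nt that overlaps it (chr19:10430338-10430460) had deposited levels of 0.128 and 0.642 at a coverage of 312. Gphn, the gephyrin scaffold of inhibitory synapses, had a tandem cassette at 0.122 and 0.676, at a coverage of 29. Of these, 2 genes have an event at a coverage under 30.

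Of the 268 cassette exon events, 189 (70.5%, exact 95% interval 64.7 to 75.9) were higher in group 2 and 79 lower. Such intervals cover counting error over events only. Tandem cassettes, in which neighbouring exons are included together, were higher in 109 of 185 events (58.9%). Mutually exclusive exons were almost evenly divided, 26 against 25, and their sign refers only to the isoform the table names first. There were 14 alternative 3′ splice site events and 3 alternative 5′ splice site events. Mutually exclusive exons made up 8.46% of the list, compared with 23.8% of the Emx1-Cre list and 24.8% of the Gad2-Cre list.

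Retained introns were the most one-sided type: 78 of 82 events (95.1%, interval 88.0 to 98.7) had the higher level in group 2. For all 82 the table names the isoforms as retained, then spliced, while the event's own name carries the word SPLICE. The level is read here as that of the retained, first-named form, which is not settled: were it the spliced form, the direction of every intron value would reverse. The 82 events cover 65 distinct introns in 63 genes, 63 of these introns higher and 2 lower in group 2. Some introns are listed more than once, and the interval above counts each listing. The distinct introns had a median length of 334 nt and a range of 66 to 3300 nt, and 28 introns were at most 200 nt long. The median level over these introns was 0.178 in group 1 and 0.355 in group 2. Mrps10, a mitochondrial ribosomal protein gene, had the largest difference of the type, at an intron of 84 nt (chr17:47372492-47372575) with deposited levels of 0.205 and 0.566. The 4 exceptions were Mib2, a ubiquitin ligase gene whose intron of 75 nt had levels of 0.252 and 0.128 in the authors' deposited table, and 3 overlapping events of 1 Suds3 intron with levels of 0.778 and 0.659. Genes of RNA-binding proteins were among those listed: deposited intron levels went from 0.374 to 0.637 in Srsf6, from 0.325 to 0.502 in Hnrnph1, from 0.385 to 0.549 in Hnrnpdl and from 0.365 to 0.499 in Srsf1, group 1 first. In the cortical tables, where group 2 is the cKO, 84.2% (Emx1-Cre) and 73.1% (Gad2-Cre) of retained introns were higher in group 2. Because the Purkinje order is open, the directions of the tables are set side by side only. Whether unspliced RNA or RNA quality differed between the groups was not tested.

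**Figure D2:**
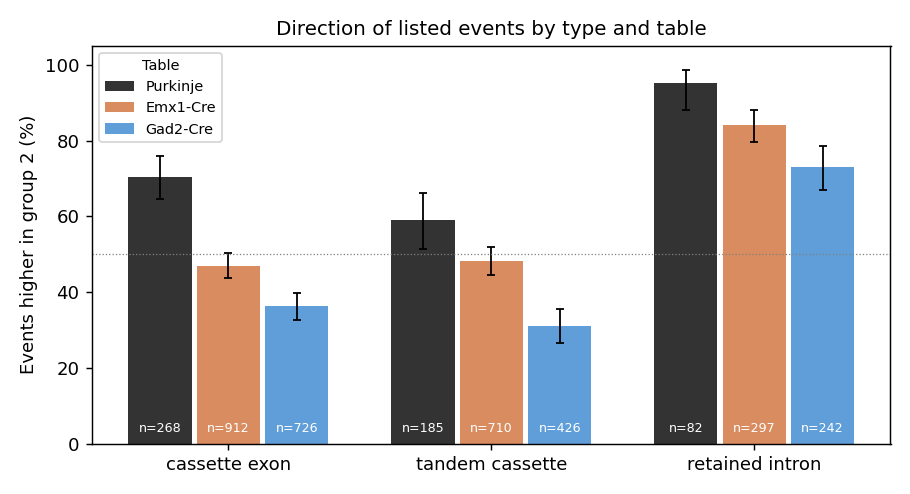
Percent of listed events that were higher in group 2 (y axis) for 3 event types in the Purkinje, Emx1-Cre and Gad2-Cre tables (bars start at 0, error bars are exact 95% binomial intervals, n is the number of events). In the Purkinje table all 3 shares are above 50%, and the retained-intron share is 95.1%; group 2 is the cKO in the cortical tables only.

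Events of 1 gene mostly moved together. Of 97 genes with at least 2 cassette, tandem or intron events, 91 (93.8%) had all of them on the same side, and the 6 with both sides were Cdc42bpa, Epb4.1l3, Gphn, Grin1, H2afy and Syt7. Many such events share exons and are not independent. By count, 149 genes have 1 event in the authors' deposited table, while 5 genes hold 92 events: Immt, a mitochondrial inner-membrane organiser, with 31 events, all lower in group 2; Syt7 with 28; the adhesion receptor gene Adgrl2 with 13, all lower; the kinase gene Brsk2 with 10, all higher; and the citric acid cycle gene Idh3b with 10, all lower. All 13 Adgrl2 events had the same coverage of 20.9941, close to the lowest listed coverage of 20. Counting the gene rather than the event, by its largest difference, 186 of the 252 genes with a name in the file (73.8%) were higher in group 2 and 66 (26.2%) lower. These shares, used below as background, pool all event types. They take in introns, whose reading is not settled. They also take in mutually exclusive exons and alternative splice sites, whose sign refers only to the first-named isoform.

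**Figure D3:**
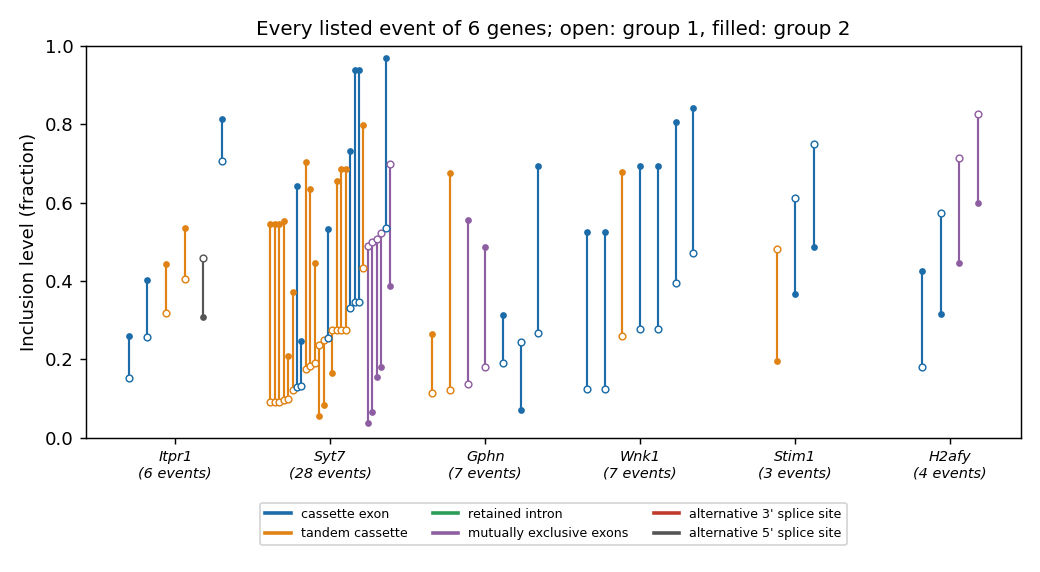
Inclusion level (y axis, fraction) of every listed event of 6 genes, with open circles for group 1, filled circles for group 2 and colours for the event type. All 7 Wnk1 events are higher in group 2 and all 3 Stim1 events are lower. The Syt7, Gphn, H2afy and Itpr1 events lie on both sides, for Itpr1 through its alternative 5′ splice site.

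Genes that stood in neither cortical table made up 118 of the 252 (46.8%, interval 40.5 to 53.2) and held 204 events. The cortical tables compare sorted neurons at embryonic day 18.5, with Nova2 deleted by Emx1-Cre or Gad2-Cre, and age, cell type, sorting and depth cannot be told apart in this contrast. The largest event of a gene was higher in group 2 in 81 of the 118 genes and lower in 37, beside 73.8% higher among all 252. Their median absolute difference was 0.183, against 0.180 over all named genes, and 21 of the 118 differed by at least 0.3. The same held for 10 of 32 genes in the Emx1-Cre table only, 2 of 26 in the Gad2-Cre table only and 12 of 76 in both. Coverage of the 118 was lower than for genes in both cortical tables, with a median of 59.1 against 108. Of the 118, 12 (10.2%) had an event in the comparison of Emx1-Cre with Gad2-Cre controls. That share was 37.5% for Emx1-Cre only, 19.2% for Gad2-Cre only and 28.9% for both.

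Ank1 encodes ankyrin-R, which ties membrane proteins to the spectrin skeleton, and its exon of 24 nt printed above had levels of 0.995 in group 1 and 0.489 in group 2 (FDR 3.76e-25) in the authors' deposited table, nearly constitutive in group 1 and alternative in group 2. Map7d2, a microtubule-associated protein that binds kinesin, had a coding exon of 99 nt (chrX:159460267-159460365) at deposited levels of 0.907 and 0.453. Dgkg, the diacylglycerol kinase gamma of Purkinje cells, had a coding exon of 117 nt (chr16:22572600-22572716) at deposited levels of 0.583 and 0.932 (FDR 6.96e-24, coverage 189). In the metabotropic glutamate receptor gene Grm7, a partly coding exon of 92 nt (chr6:111501510-111501601), which shifts the frame, had deposited levels of 0.737 and 0.313. The well-covered Gprc5b event, an alternative 3′ splice site of an orphan receptor gene (coverage 521), had levels of 0.589 and 0.920 for the first-named isoform, with an FDR of 1.24e-73 in the authors' deposited table.

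Further genes of this set were lower in group 2 in the authors' deposited table at a frame-keeping exon in Osbpl6, a lipid-binding protein gene (0.778 and 0.470), and at an alternative 5′ splice site in Tln2, the integrin-binding talin 2 (0.613 and 0.297). Tcaim had an alternative 3′ splice site with deposited levels of 0.837 and 0.397, at a coverage of 42.0. Wnk1, a kinase that controls cation-chloride cotransport, had 7 overlapping events in 1 place, all higher in group 2, at coverages of only 23.9 to 32.3. Its coding exon of 93 nt had deposited levels of 0.394 and 0.805. H2afy encodes the histone variant macroH2A, whose neighbouring alternative exons moved in opposite ways. Its exon of 100 nt (chr13:56089758-56089857) had deposited levels of 0.574 and 0.316 and its exon of 91 nt (chr13:56088252-56088342) had 0.180 and 0.425. The exon of 12 nt in Zmynd8, a chromatin reader gene, was at 0.385 and 0.630 in the authors' deposited table. Retained introns of this set were higher in group 2 in 24 of 27 events, beside 78 of 82 over all genes. Examples are Yeats2 (0.178 and 0.423) and Snx11 (0.153 and 0.385) in the authors' deposited table. Ccdc85a (0.766 and 0.243) and Sh3pxd2a (0.391 and 0.880) had larger differences but deposited coverages of only 23 and 24.

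**Figure D4:**
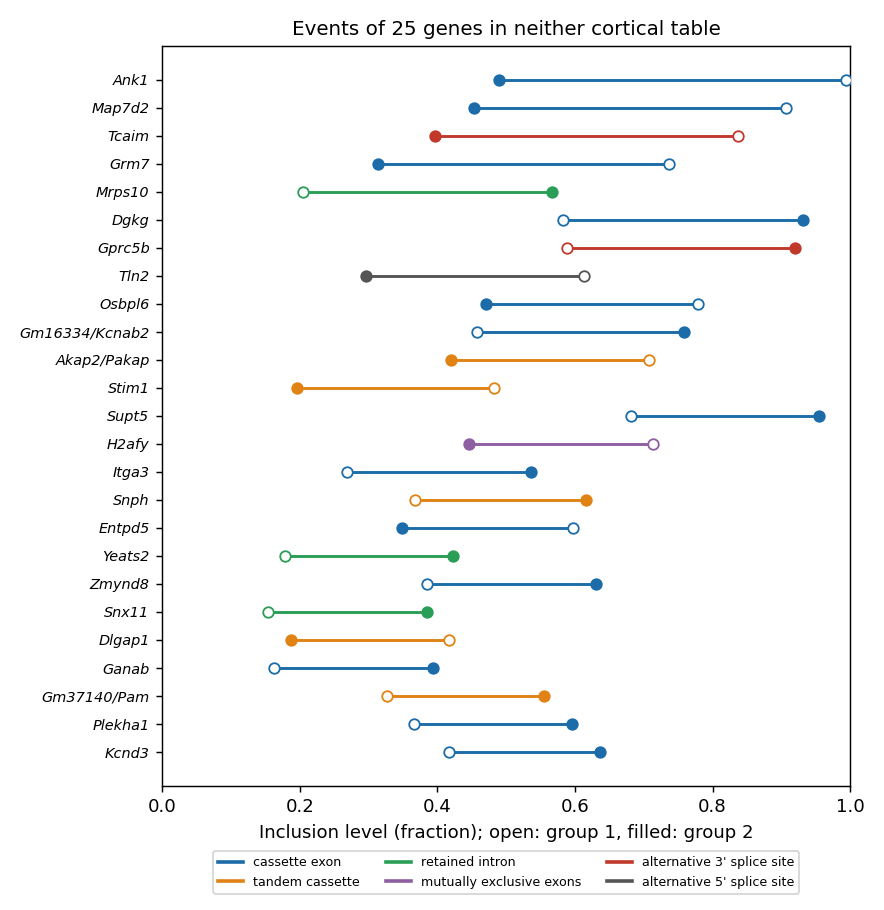
Inclusion level (x axis, fraction) in group 1 (open) and group 2 (filled) for 25 genes with large differences among those in neither cortical table, at a coverage of at least 40, with 1 event per gene coloured by type. Ank1 has the widest gap of those shown, from 0.995 to 0.489, and both directions occur throughout the list.

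Calcium signalling genes of Purkinje cells had a listed event in 7 of 49, and 5 of the 7 were in neither cortical table, beside 46.8% of all 252 named genes. The lists of genes used here were written with earlier results of these data known, so their share is not set against the 1.18% of all genes as evidence. By the largest event of each gene, 5 of the 7 were higher and 2 lower in group 2, beside 73.8% higher among all 252 named genes. Their median absolute difference was 0.153 over the 7, and the Itpr1 sign here is that of a splice site choice. Itpr1, the IP3 receptor that releases calcium from the endoplasmic reticulum, had the deepest data of the table, at coverages from 2052 to 6953 over 6 events. Its exon of 45 nt printed above, the segment known as SI, had deposited levels of 0.256 and 0.402 (FDR 4.73e-96), and a second coding exon of 51 nt (chr6:108432646-108432696) had 0.708 and 0.814. The Itpr1 alternative 5′ splice site had levels of 0.459 and 0.308 in the authors' deposited table, and 0.934 in control and 0.409 in cKO neurons of the Emx1-Cre table. Plcb4, the phospholipase that acts upstream of this receptor, had a tandem cassette at deposited levels of 0.514 and 0.667. Stim1, the calcium sensor of the store, went the other way: its exon of 37 nt, which shifts the frame, had deposited levels of 0.749 and 0.486, at a coverage of 70.8. Inpp4a, a phosphoinositide phosphatase gene, had its exon of 33 nt at 0.251 and 0.470 (FDR 3.56e-12) in the authors' deposited table, and Rgs8, a G-protein regulator of Purkinje cells, had a tandem cassette at 0.684 and 0.793.

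Ion channel genes had a listed event in 5 of 67, all 5 higher in group 2 where 73.8% of all 252 named genes were higher. Over all protein-coding genes the listed share was 1.18%. The count is not read as evidence, because this list too was written with earlier results known. The median absolute difference of the 5 was 0.220. Of the 5, 4 were in neither cortical table, beside 46.8% of all 252. Kcnd3 encodes the A-type potassium channel Kv4.3, and its exon of 57 nt had deposited levels of 0.417 and 0.637. Kcnab2, a potassium channel beta subunit whose event also carries the name Gm16334, had deposited levels of 0.457 and 0.759. Cacnb2, a calcium channel beta subunit, had a coding exon of 20 nt (chr2:14968218-14968237), which shifts the frame, at deposited levels of 0.220 and 0.364.

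Genes named in inherited ataxia or in ataxic mice had a listed event in 8 of 75, 6 higher and 2 lower in group 2. Beside the 1.18% of all protein-coding genes this is not read as evidence, because the list was written with earlier results known. Among all 252 named genes 73.8% were higher. The Itpr1 sign is that of a splice site choice and the Nop56 sign that of an intron. Among the 8 were Kcnd3, Plcb4 and Itpr1, described above, and Tbp, Mtcl1, Nop56 and Vldlr. Tbp, the TATA-binding protein, had an exon of 204 nt in its untranslated region at deposited levels of 0.171 and 0.478, Mtcl1, a microtubule crosslinker gene, had an exon of 57 nt at 0.911 and 0.658, and Nop56, a snoRNP protein gene, had an intron of 83 nt at 0.0883 and 0.225. Vldlr, a reelin receptor, had an exon at deposited levels of 0.562 and 0.695.

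At synapses, the glutamate receptor and scaffold list had events in 7 of 58 genes, 4 higher and 3 lower in group 2, beside 73.8% higher among all named genes. Among the 4, Gria4 counts by mutually exclusive exons, whose sign carries no inclusion, and Adam11 by a retained intron, whose reading is not settled. Grin1, the obligatory NMDA receptor subunit, had 2 coding exons that went opposite ways in the authors' deposited table: the exon of 63 nt (chr2:25311343-25311405) was at 0.208 and 0.402, and the exon of 111 nt (chr2:25294438-25294548) was at 0.288 and 0.134. Dlg2, a postsynaptic scaffold gene, had a coding exon of 156 nt at 0.281 and 0.520 (FDR 9.86e-19), and Dlgap1, a scaffold-binding protein gene, a tandem cassette at 0.417 and 0.187, both in the authors' deposited table. Presynaptic genes were listed in 7 of 86, all 7 higher in group 2 beside 73.8% of all named genes, but for Dennd1a the event was of mutually exclusive exons, whose sign carries no inclusion. Epn1, an endocytic adaptor gene, had a coding exon of 75 nt at deposited levels of 0.187 and 0.438. Adhesion genes were listed in 7 of 68, 3 higher and 4 lower, beside the same 73.8% higher. None of these adhesion genes was in the set of genes in neither cortical table, which holds 46.8% of all 252 named genes. Of 28 inhibitory synapse genes, 1 was listed, Gphn. A listed event was found for 1.18% of all protein-coding genes. The synapse lists were written with earlier results known, so their counts are not read as evidence.

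Cytoskeletal genes had a listed event in 17 of 115 (14.8%), where 1.18% of all protein-coding genes had one. This is not read as evidence, because the lists were written with earlier results known. Of the 17, 10 were lower and 7 higher in group 2, beside 26.2% lower among all 252 genes. Map4 counts as lower here by mutually exclusive exons, whose sign carries no inclusion. Ank3 counts as higher by a splice site, and Myl6 and Ppp1r12a by an intron. The list also holds the kinase gene Wnk1, which counts as higher by a tandem cassette at a coverage of only 32.3. Sptan1, the alpha-spectrin of neurons, had a coding exon of 60 nt (chr2:30001100-30001159) at deposited levels of 0.845 and 0.695, with a coverage of 834, and Map4, a microtubule-binding protein, had a coding exon of 190 nt at 0.451 and 0.678. Klc1, a kinesin light chain (0.669 and 0.477), and Myh10, a non-muscle myosin (0.652 and 0.474), were lower in the authors' deposited table, and both were in neither cortical table. Splicing factors and other RNA-binding proteins had events in 13 of 107 genes, 11 higher and 2 lower beside 73.8% higher among all 252, and 10 of the 13 by a retained intron, where the reading of the level is not settled. GTPase regulators were listed in 9 of 119, 5 higher and 4 lower beside 73.8% higher among all 252. Rasal2 counts as higher here by a splice site, whose sign refers only to the first-named isoform. Axon guidance genes were listed in 3 of 62 and chromatin and transcription genes in 2 of 86. NOVA targets named by earlier work were listed in 11 of 43, 7 higher and 4 lower beside the same 73.8% higher. Among the lower, Map4 counts by mutually exclusive exons and Itpr1 by a splice site. Among the higher, Ank3 counts by a splice site and Slc4a3 by an intron. Of the 43, 29 were in the Emx1-Cre and 23 in the Gad2-Cre table. Of all protein-coding genes, 1.18% had a listed event here, against 4.66% in the Emx1-Cre and 3.93% in the Gad2-Cre table. The counts of the 43 are therefore not read as fewer NOVA targets in the Purkinje layer. Among cell type markers, Itpr1 and Rgs8 were listed of 20 Purkinje genes, and no gene was listed of 16 granule cell genes or of 39 genes of glia, interneurons and vessels. The share over all protein-coding genes is 1.18%, so a count of 0 in lists of these sizes says little. These are counts of splicing events and not of expression, so the purity of the layer was not tested.

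Events were next matched to the cortical tables by their identifier. The Purkinje list shares 161 events with the Emx1-Cre list (26.7% of the Purkinje and 6.00% of the Emx1-Cre events) and 147 with the Gad2-Cre list (24.4% and 7.46%). Of the 134 genes that also stood in a cortical table, 84 shared an event with one and 50 were listed there by other events only. The 161 events lie in 69 genes and the 147 in 60, and events of 1 gene are often not independent. In 156 of the 161 and in 141 of the 147 shared events, group 2 lay on the same side of group 1 as cKO lay of control. This describes listed events and does not name the Purkinje groups. The differences were smaller in the Purkinje layer in most of them: the median absolute difference was 0.160 against 0.258 in Emx1-Cre neurons, larger there in 127 events, and 0.157 against 0.213 in Gad2-Cre neurons, larger there in 112. The share of RNA from cells that keep Nova2 differs between a dissected layer and sorted neurons by design, and its part in these sizes was not tested.

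**Figure D5:**
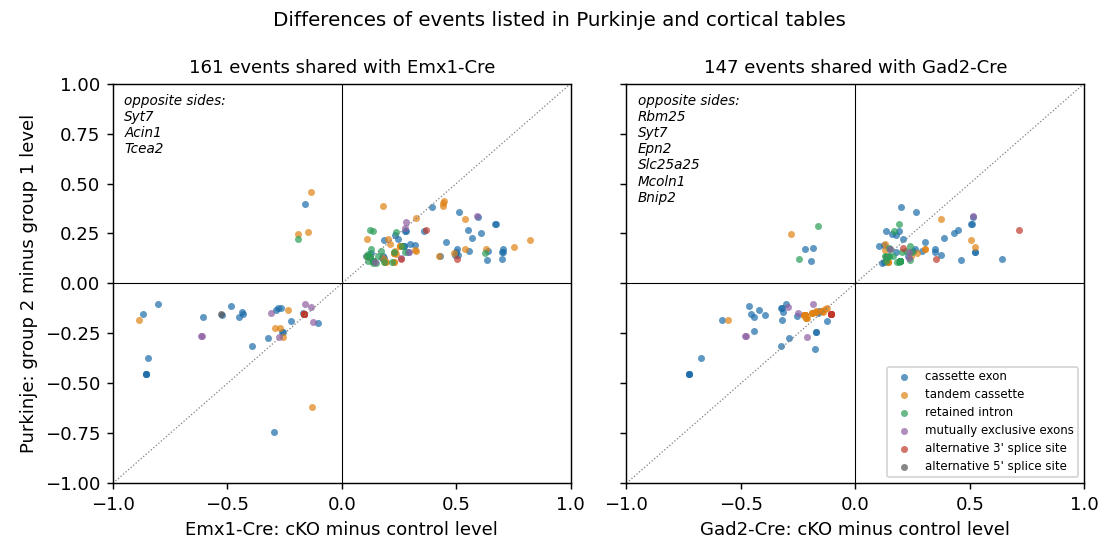
Difference in inclusion level of group 2 minus group 1 in the Purkinje table (y axis) against cKO minus control in the Emx1-Cre (left, 161 events) and Gad2-Cre table (right, 147 events), with points coloured by event type and the dotted line marking equal differences. Most points lie in the lower left and upper right areas, and the genes of the 5 and 6 events on opposite sides are named in each panel.

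Individual exons show how the sizes compared. Ccdc64, a dynein adaptor gene, had an exon of 45 nt at 0.760 and 0.306 in the authors' deposited table of the Purkinje layer, at 0.904 in control and 0.0479 in cKO Emx1-Cre neurons, and at 0.864 and 0.137 in Gad2-Cre neurons. The Map4 exon above had 0.422 and 0.993 in the Emx1-Cre and 0.487 and 0.877 in the Gad2-Cre table. Gphn had an exon of 108 nt (chr12:78493950-78494057) at deposited levels of 0.190 and 0.314 in the Purkinje layer, against 0.180 and 0.881 in Emx1-Cre and 0.0517 and 0.693 in Gad2-Cre neurons. The frame-keeping Ssbp4 exon printed above, from a single-stranded DNA-binding protein gene, had 0.455 and 0.812 in the Purkinje layer, 0.267 and 0.779 in the Emx1-Cre table and 0.317 and 0.582 in the Gad2-Cre table. Akap11, a protein kinase A anchor gene, had a coding exon of 84 nt at 0.959 and 0.645 in the authors' deposited table, close to the 0.923 and 0.531 of Emx1-Cre neurons. Ralgapb, a Ral GTPase regulator gene, had its exon of 36 nt at 0.667 and 0.338 in the Purkinje layer but at 0.220 and 0.0451 in control and cKO of the Gad2-Cre table, lower levels in both groups. The Nop56 intron had levels of 0.0791 in control and 0.236 in cKO Emx1-Cre neurons, close to the deposited Purkinje levels.

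Opposite sides were rare and are listed in full by gene. Against the Emx1-Cre table there were 3 tandem cassettes of Syt7, 1 exon of Acin1 and 1 intron of Tcea2, and against the Gad2-Cre list there was 1 of the same Syt7 events and single events of Rbm25, Epn2, Slc25a25, Mcoln1 and Bnip2. A Syt7 tandem of 351 nt (chr19:10422785-10430460) had deposited levels of 0.0951 and 0.553 in the Purkinje layer, and 0.468 in control and 0.333 in cKO Emx1-Cre neurons. Acin1, a splicing-associated protein gene, had an exon of 104 nt at deposited levels of 0.256 and 0.656 at a coverage of 24.4, against 0.579 and 0.418 in the Emx1-Cre table. Epn2, an endocytic adaptor gene, had a coding exon of 36 nt at deposited levels of 0.411 and 0.587, against 0.537 and 0.350 in Gad2-Cre neurons. Rbm25, a splicing regulator gene, had an intron at deposited levels of 0.505 and 0.792, against 0.774 and 0.610 in Gad2-Cre neurons. All of these events were higher in group 2 in the Purkinje layer, and the difference between the tables was not tested.

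Listed cassette exons were described by their sequence and annotation. The median exon was 92 nt long, 17 of 268 were at most 27 nt, and 167 (62.3%, interval 56.2 to 68.1) had a length divisible by 3. Of the 120 coding cassettes that match a GENCODE exon exactly, 101 (84.2%, interval 76.4 to 90.2) kept the frame, beside 78.3% in the Emx1-Cre and 73.6% in the Gad2-Cre table. Exact GENCODE exons made up 164 events, and 104 exons were not in GENCODE with these ends. YCAY occurred in 117 of the 164 with a sequence (71.3%), at 1.85 per 100 nt, beside 1.84 and 1.88 in the cortical tables. Over the 165262 internal coding exons of GENCODE M21 the motif stood in 81.8% and at 1.78 per 100 nt, where exons differ in length from those listed. Exons higher in group 2 had 1.91 motifs per 100 nt and exons lower in group 2 had 1.66, but the share that held the motif was 70.4% (interval 61.2 to 78.6) of the higher and 73.5% (58.9 to 85.1) of the lower exons, so the measures differ in order. Introns, where much of NOVA2 binding is known to lie, were not analysed here.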

How the data were processed

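Splicing was measured by RNA-seq, and the authors' deposited tables, made with Quantas on mm10 per the labels, were used as they stand. Per the file headers each event has an inclusion level per group, a fraction, and their difference, a score that equals group 1 minus group 2. Per the file headers each also has a p-value with FDR and a coverage, a signal that no header or label defines. Other deposited columns give event positions. Aligner and depth per sample: not given in the sources used here. Events were read with pandas 2.3.3, matched to other tables by identifier and to exons of GENCODE M21 by coordinates. No test was run beside the authors' FDR, and exact 95% binomial (Clopper-Pearson) intervals from scipy 1.17.1 describe shares. For intron events the level was taken as that of the retained form, which the table names first, although event names carry the word SPLICE, so this reading is not settled. Parsing and counting were tested on simulated data. A gene is represented by its largest difference. Named genes are the 10 largest differences, up to 6 per event type among genes in neither cortical table (coverage at least 40), up to 5 per list, the 10 largest shared with both cortical tables, events on opposite sides, and the smallest and least covered. Other genes or events named in the text (Klc1, Myh10, Mib2, Suds3 and the Grin1 exon that was lower in group 2, for example) were chosen after their values were seen. Some genes that these rules name are not reported here. Members and lists were chosen with earlier results of these data known. Alternatives raised the limits on FDR, difference and coverage, kept 1 event per gene, and matched by overlap or gene identifier.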

Additional observations from a re-analysis of the deposited data

How the results depend on the processing

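Of 26 alternative settings over 8 shares, 17 kept the share within its interval and 9 moved it. The share of retained introns lower in group 2 was 4.88% and became 0% at an FDR of at most 0.01 (0 of 30) and 0% at a difference of at least 0.2 (0 of 17), where Mib2 and Suds3 drop out. The share of Purkinje events in the Emx1-Cre list, 26.7%, became 30.7% at an FDR of at most 0.01, 30.8% at a coverage of at least 40 and 36.0% when exons or introns were matched by genome overlap. For the Gad2-Cre list, 24.4% became 30.2%, 29.2% and 34.1% under the same settings and 15.8% at a difference of at least 0.2; the cause was not tested. The share of genes in neither cortical table ranged from 40.7% to 49.5%. Motif counts in introns were not run, because no genome sequence of the files' build was used here. No paired analysis was possible because the tables hold 1 pooled level per group and no column per sample, so no sample could be left out either. What a coverage near 20 means in reads is not known.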

Other observations

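At the lower edge of the authors' deposited table, the smallest difference belonged to Ogdhl, a mitochondrial dehydrogenase gene, with a tandem cassette at 0.259 in group 1 and 0.359 in group 2 and a coverage of 295. The lowest coverage, 20, was that of a Nek1 exon with deposited levels of 0.0579 and 0.160. Slc4a10, a bicarbonate transporter gene in neither cortical table, had an exon of 70 nt that is not in GENCODE at deposited levels of 0.00830 and 0.148 with an FDR of 4.59e-36, a low FDR for a small difference near 0. Grik1, a kainate receptor gene, had a coding exon of 87 nt listed at 0.111 in group 1 and 0.000459 in group 2. Its coverage of 25.2 and deposited FDR of 0.0469 were both close to the limits of the list.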
